A study of Arabidopsis thaliana with 9 samples.

Results

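Leaf transcriptomes of Arabidopsis thaliana Col-0 under prolonged warming (PW) and under heat shock (HS) were compared directly, in 6 of the 9 RNA-seq libraries of the study. The 6 libraries, 3 of each treatment, were taken by their treatment labels, and no measured value entered the choice. For PW, plants 23 days after sowing were moved to a 28 °C day and a 23 °C night, where they stayed 7 days. HS plants received 38 °C for 6 hours at 30 days after sowing. The 3 remaining libraries, the control (CK), came from plants grown for 30 days with days of 23 °C and nights of 18 °C, and they entered the fit and are given beside the results. All 9 libraries were from wild-type plants, with no transgene or mutant allele, and the study describes the 3 libraries of a group as biological replicates. Temperature and length of exposure changed together between PW and HS, so a difference between them cannot be assigned to either. The hour at which PW and CK leaves were taken was not given in the sources used here. Of 33602 gene identifiers, 18952 had at least 10 counts in at least 3 of the 9 libraries and were tested.

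Plants meet severe heat mainly through heat shock factors, transcription factors that bind repeated nGAAn units (heat shock elements) and switch on molecular chaperones, which hold and refold damaged proteins. Mild warmth acts through a different route in Arabidopsis, in which phytochrome B and EARLY FLOWERING 3 lose activity, the bHLH factor PIF4 is released and auxin-driven elongation follows, a growth response called thermomorphogenesis. PIF factors and the bZIP factors of abscisic acid (ABA) signalling both bind the G-box CACGTG, and the clock represses evening genes through the evening element AAAATATCT.

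The promoter stretches below are shown because these 3 motifs were counted in the promoters of the genes that separated PW from HS. They are RefSeq sequence of TAIR10.1, from the window of 250 bases before to 50 bases after each annotated start, in the gene's own direction, with the motif in capitals. The first 3 hold a heat shock element of 3 units (GAANNTTCNNGAA or TTCNNGAANNTTC), the next 3 a G-box, and the last an evening element on the opposite strand. HSP17.4, AT1G53540, DREB2A, SR34b, LEA7 and BOA were lower in PW than in HS, and LHCB2.3 was higher.
HSP17.4, chr3:16984868-16984996, - strand: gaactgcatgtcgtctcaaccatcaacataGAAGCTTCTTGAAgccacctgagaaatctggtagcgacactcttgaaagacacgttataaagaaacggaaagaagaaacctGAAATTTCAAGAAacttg
AT1G53540, chr1:19980216-19980288, + strand: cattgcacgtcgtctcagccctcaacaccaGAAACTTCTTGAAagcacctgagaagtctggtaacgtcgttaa
DREB2A, chr5:1602011-1602083, + strand: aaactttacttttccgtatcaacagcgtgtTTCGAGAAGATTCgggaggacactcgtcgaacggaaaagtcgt
SR34b, chr4:1068884-1068958, + strand: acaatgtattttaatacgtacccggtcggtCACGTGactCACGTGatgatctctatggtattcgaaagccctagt
LEA7, chr1:19619476-19619541, + strand: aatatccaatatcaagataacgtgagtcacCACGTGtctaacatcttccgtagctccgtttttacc
LHCB2.3, chr3:10255788-10255853, + strand: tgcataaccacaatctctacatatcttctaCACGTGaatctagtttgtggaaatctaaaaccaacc
BOA, chr5:24003815-24003883, + strand: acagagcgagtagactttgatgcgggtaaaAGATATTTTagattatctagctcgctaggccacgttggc

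Genes were called when edgeR's Benjamini-Hochberg adjusted p was under 0.05 and the fold change at least 2. The heat shock element was found, on either strand, in 3 of 1297 promoters of genes called higher in PW (0.231%) and in 26 of 1396 promoters of genes called lower (1.86%), against 108 of 18814 promoters of all tested genes (0.574%). Among the 199 promoters of genes called lower with a log2 fold change of -3 or below, 11 held it (5.53%). The G-box was in 6.48% of the promoters of genes higher in PW and 15.2% of those of genes lower in PW, against 8.97% over all tested genes. The evening element was in 4.09% and 4.08% of these promoters, against 3.08%. A match is a run of letters and not a shown binding site, and no test was made of these shares. The heat shock element searched asks for 3 perfect units, and only 2 of the 17 promoters of small heat shock protein genes contained it.

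The libraries held 11660970 to 17768334 counts. Leaf mesophyll markers (RBCS1A, CAB1, LHCB3 and RCA) summed to between 62086 and 75758 CPM (counts scaled by library size to a common total) in PW, 27448 to 34710 CPM in HS and 24594 to 30927 CPM in CK. HS1 and HS2 correlated at r = 0.987 over log2 CPM, and HS3 correlated with them at 0.912. The root-associated genes PYK10 and PRXCA were at 53.8 and 40.2 CPM in PW1 and at 14.4 and 15.9 CPM in HS3, with at most 2.47 CPM of either in the other PW and HS libraries, while the root markers SHV2, EXPA7 and IRT1 were at 0 in all 6. The summed root list ran from 0.0963 to 94.1 CPM in PW, 0 to 30.3 CPM in HS and 36.8 to 58.4 CPM in CK. Guard cell markers (KAT1, FMA and MYB60) summed to 48.6 to 88.3 CPM in PW, 26.5 to 43.5 CPM in HS and 35.9 to 38.2 CPM in CK, and 5 floral organ markers to 3.08 to 23.5 CPM in PW, with the highest in PW1, 1.57 to 4.69 CPM in HS and 1.61 to 27.4 CPM in CK. The part of these lists in the results was not tested. Among the mesophyll markers RCA, the Rubisco activase gene, overlapped between PW (7356, 14106 and 13965 CPM) and HS (12092, 10746 and 5718 CPM). Because PW1 and HS3 stood apart in this way, list counts without both are given where a count of 2 or more moved by over 1.5 times. Fewer cells of a type and less RNA per cell cannot be told apart in bulk leaf RNA.

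PW and HS leaves differed at 2746 of the 18952 tested genes (14.5%). Of these, 1312 were higher in PW (6.92% of tested genes) and 1434 were lower in PW (7.57%). These shares are the background for the list counts that follow. The largest differences ran toward lower levels in PW: 70 called genes had a log2 fold change of -5 or below, and 24 had one of 5 or above. Called genes higher in PW together made up 245138 CPM in PW, 89914 CPM in HS and 119446 CPM in CK. Called genes lower in PW made up 30559 CPM in PW, 116761 CPM in HS and 56143 CPM in CK. Every PW library lay above every HS library at 17.3% of tested genes and below every HS library at 21.1%, a count that includes small differences. Genes without introns made up 24.9% of the genes called higher and 23.7% of those called lower, against 15.7% of all tested genes with an annotated transcript. The plot of change against level shows the named extremes.

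**Figure D1:**
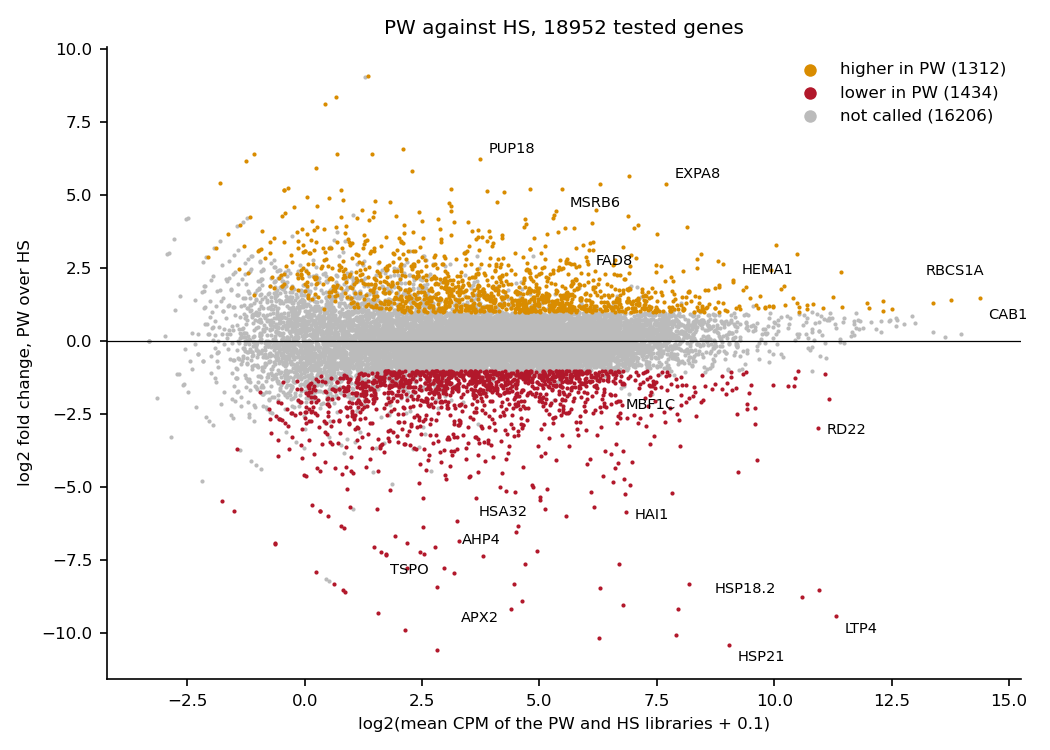
Each point is a tested gene, with log2 of its mean CPM over the PW and HS libraries (plus 0.1) on the x axis and its log2 fold change, PW over HS, on the y axis. Orange points are the 1312 genes called higher in PW, red points the 1434 called lower and grey points the rest; the chaperone and lipid transfer genes HSP21, HSP18.2 and LTP4 lie lowest among abundant genes, and CAB1 and RBCS1A lie farthest right.

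Small heat shock proteins, which hold unfolding proteins until other chaperones act, had the lowest list median. Of 17 genes, all tested, 16 fell in PW relative to HS and none rose, with a median log2 fold change of -7.78 against -0.02 over all tested genes. Without HS3 the count was 15. Of the 17, 8 reached the count filter only through the HS libraries. All 8 were called lower, and those calls carry no weight of their own. ATHSP22.0, HSP17.4, AT1G53540 and HSP23.6-MITO, described below, are among them. Adjusted p-values printed for any of these genes only describe the fit. With at least 10 counts in every library the list median was -2.64. HSP18.2 (AT5G59720), a cytosolic member and the most abundant, had 8.88, 6.26 and 5.77 CPM in PW libraries, against 2555, 3001 and 3642 CPM in HS libraries (log2FC -8.78, SE 0.33, edgeR adjusted p = 3.3e-06). The groups lay far apart, and CK libraries had 1.57, 1.61 and 1.15 CPM. The family held 0.00592% to 0.00851% of all counts in PW libraries, against 0.547% to 0.808% in HS and 0.00696% to 0.00721% in CK. ATHSP22.0 (AT4G10250), an endoplasmic reticulum member, had 0.513, 0.385 and 0.412 CPM in PW libraries, against 213, 388 and 845 CPM in HS libraries (log2FC -10.07, SE 0.71, edgeR adjusted p = 6.6e-05). Its HS values were spread, with HS3 highest, and without HS3 the log2 fold change was -9.39. The cytosolic HSP17.4 (AT3G46230), whose promoter carries 2 of the heat shock elements shown above, had 0.598, 0.385 and 1.65 CPM in PW libraries, against 445, 461 and 579 CPM in HS libraries (log2FC -9.16, SE 0.49, edgeR adjusted p = 2.1e-05), and -9.94 without PW3. AT1G53540, also shown above, had 0.513, 0.289 and 0.412 CPM in PW libraries, against 216, 202 and 242 CPM in HS libraries (log2FC -9.04, SE 0.28, edgeR adjusted p = 1.7e-06). HSP23.6-MITO (AT4G25200), which resides in mitochondria, had 3 counts over the PW libraries together, 2 of them in PW3, and its mean level was 518-fold lower in PW, with a 95% counting interval of 177 to 2513. Its fitted log2 fold change was -8.89, and -9.83 without PW3. The member that was not called, AT4G21870, averaged 8.57 ± 1.59 CPM in PW and 4.47 ± 1.76 CPM in HS (SD, n = 3 each).

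The larger chaperones, which refold or disaggregate proteins with ATP, separated the treatments less. In the list of HSP100, HSP90 and HSP70 chaperones and their partners, 12 of 25 fell in PW relative to HS and 1 rose, with a median log2 fold change of -1.08. Without PW1 and HS3 these counts were 13 and 3. HSP90.1 (AT5G52640), the heat-inducible cytosolic HSP90, had 25.5, 30.6 and 30.5 CPM in PW libraries, against 186, 160.0 and 193 CPM in HS libraries, and 12.3, 14.5 and 16.3 CPM in CK (log2FC -2.64, SE 0.16, edgeR adjusted p = 4.0e-05). Hop3, which links HSP70 to HSP90, had 6.83, 8.48 and 10.9 CPM in PW libraries, against 76.6, 62.7 and 103 CPM in HS libraries (log2FC -3.21, SE 0.25, edgeR adjusted p = 0.000112). HSA32, a protein needed for acquired heat tolerance to last, had 1.62, 0.867 and 1.24 CPM in PW libraries, against 52.1, 54.7 and 97.2 CPM in HS libraries (log2FC -5.75, SE 0.33, edgeR adjusted p = 3.2e-05). All 3 genes were lower in every PW library than in every HS library. HSC70-1, the constitutive cytosolic HSP70 and the most abundant member, had 1461, 1382 and 1242 CPM in PW libraries, against 456, 449.6 and 1531 CPM in HS libraries and was not called (log2FC 0.75, SE 0.44, edgeR adjusted p = 0.241). HS3 was above all PW libraries at this gene, and without HS3 the log2 fold change was 1.59 and passed the test. AT3G09440, a near copy of HSC70-1 named after its values were seen, was the member that rose, with 180.4 ± 32.5 CPM in PW and 51.8 ± 11.8 CPM in HS (SD, n = 3 each; log2FC 1.799). How reads were divided between such copies was not given in the sources used here.

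Some of the factors that drive chaperone genes were lower in PW. Of 25 heat shock factor, DREB2 and MBF1 genes, 20 were tested, 5 fell in PW relative to HS and none rose, against 7.57% of all tested genes called lower. Of the 5, HSFA6B and HSFA6A reached the count filter only through the HS libraries, so the count carries no weight of its own. MBF1C (AT3G24500), a coactivator of heat responses, had 44, 43.2 and 32.5 CPM in PW libraries, against 158, 183 and 148 CPM in HS libraries (log2FC -2.03, SE 0.18, edgeR adjusted p = 0.000167), and 16.1, 14.7 and 12.3 CPM in CK, so that PW lay between CK and HS without overlap. DREB2A, a drought and heat factor whose heat shock element is printed above, had 11.4, 13.5 and 4.95 CPM in PW libraries, against 32.2, 47.4 and 26 CPM in HS libraries (log2FC -1.82, SE 0.41, edgeR adjusted p = 0.0124). HSFA6B, an ABA-responsive factor, had 1 count over the PW libraries together, in PW1, and its mean level was 101-fold lower in PW, with a 95% counting interval of 18.1 to 3986. Its fitted log2 fold change was -6.32, and -8.50 without PW1. HSFA6A had 0.0854, 0.193 and 0.206 CPM in PW libraries, against 3.57, 5.11 and 1.34 CPM in HS libraries (log2FC -4.32, SE 0.64, edgeR adjusted p = 0.00172). HSFA2, the factor known to sustain the heat response and named here after its values were seen, averaged 3.88 ± 2.08 CPM in PW and 4.11 ± 0.886 CPM in HS (SD, n = 3 each) and was not called.

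Folding genes of the endoplasmic reticulum were lower in PW in part. Of 15 such genes, 7 fell in PW relative to HS and 1 rose, with a median log2 fold change of -0.97, and without PW1 and HS3 8 fell and none rose. BIP1, an HSP70 of the reticulum lumen, had 182, 77.2 and 105 CPM in PW libraries, against 492, 497 and 394 CPM in HS libraries, and 286, 293 and 331 CPM in CK (log2FC -1.93, SE 0.30, edgeR adjusted p = 0.00207). Its PW levels were below those of CK as well, and the log2 fold change of PW over CK was -1.32. ATERDJ3A, a J-domain partner of BiP, had 2.39, 2.12 and 2.47 CPM in PW libraries, against 16.9, 19.2 and 15.1 CPM in HS libraries (log2FC -2.87, SE 0.21, edgeR adjusted p = 7.4e-05). The member that rose, BIP3, was under 1 CPM in all 6 libraries and kept its call in only 1 of 9 fits that left out a library, that without HS1. BIP1 and BIP2 are near copies. The G-box was in 9 of the 15 promoters (60%), against 8.97% over all tested genes. Other lists ran from none of 10 desaturase promoters to 40.6% of the nuclear photosystem list and 87.5% of the morning clock list. No test was made of these shares.

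SR splicing factors, which choose splice sites in pre-mRNA, were lower in PW in part: 5 of 20 fell relative to HS and none rose, with a median log2 fold change of -0.41. SR30 (AT1G09140) had 54.7, 77.1 and 83 CPM in PW libraries, against 259, 249 and 266 CPM in HS libraries (log2FC -1.85, SE 0.17, edgeR adjusted p = 0.000237). SR34b, whose promoter carries the paired G-boxes shown above, had 20.1, 21.2 and 24.4 CPM in PW libraries, against 65.4, 69.7 and 94.9 CPM in HS libraries (log2FC -1.81, SE 0.17, edgeR adjusted p = 0.000253). PW and CK libraries were close at both genes, with 73, 73 and 69.2 CPM of SR30 and 21.8, 19.6 and 17.5 CPM of SR34b in CK. SR34, the most abundant, was called with a log2 fold change of -1.03, and at -0.76 without HS3 it was no longer past 2-fold.

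**Figure D2:**
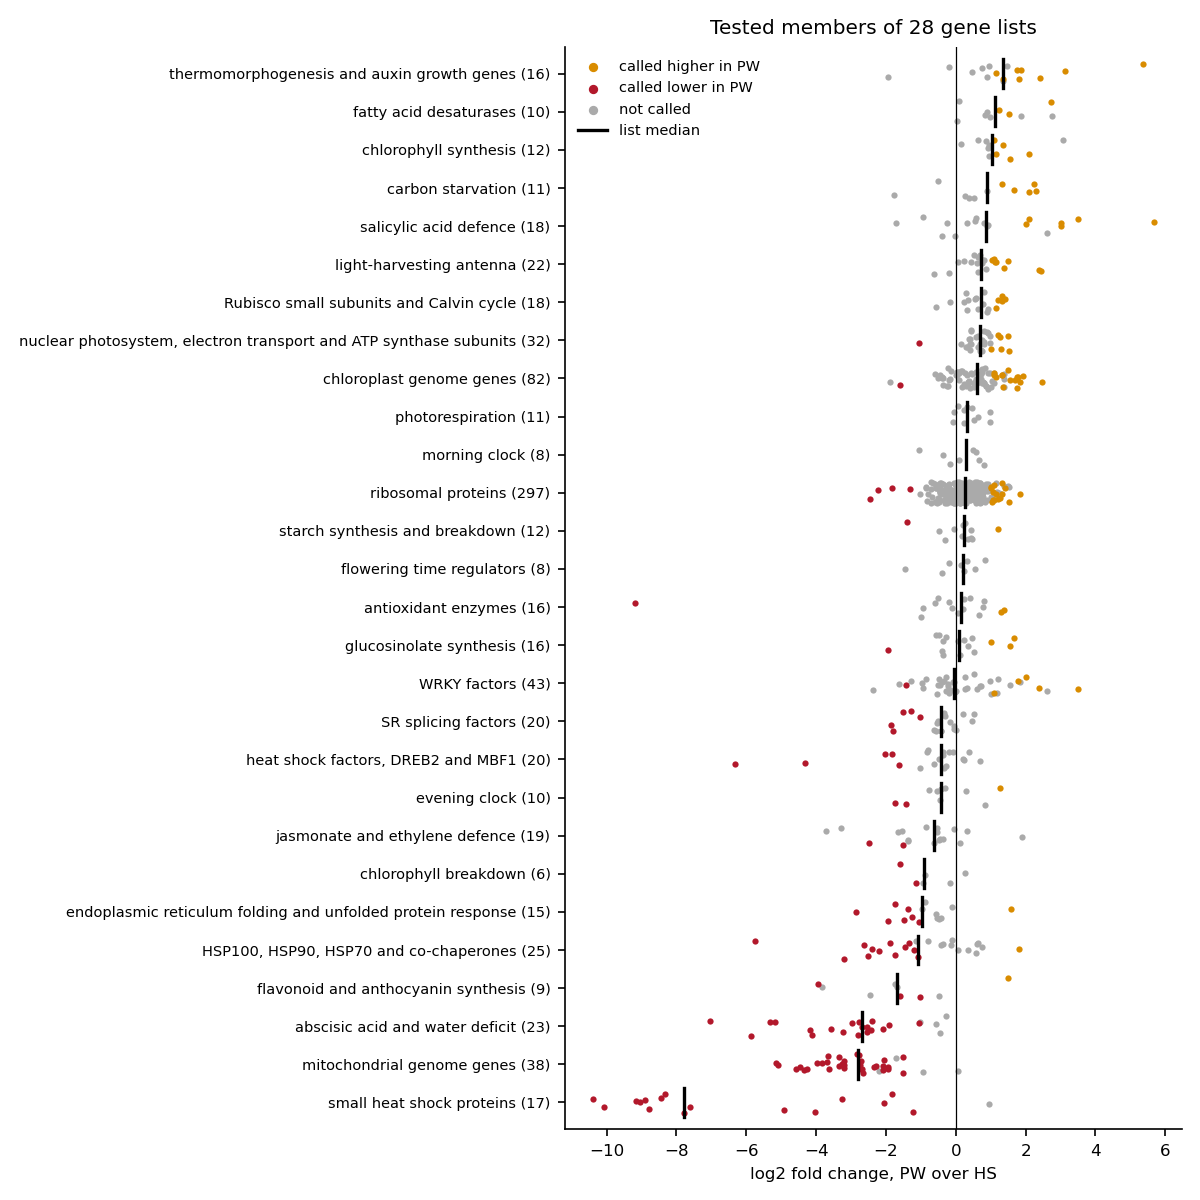
Each point is a tested member of 1 of 28 gene lists, with its log2 fold change, PW over HS, on the x axis and the number of tested members in brackets. Orange and red mark members called higher and lower in PW and black bars the list medians, which run from -7.78 for small heat shock proteins to 1.35 for thermomorphogenesis genes. The small heat shock list includes genes that passed the count filter only through the HS libraries.

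Most ABA and water-deficit genes were lower in PW. ABA is the hormone that closes stomata and protects cells during drought. Of 23 listed genes of ABA signalling, ABA synthesis and water deficit, 19 fell in PW relative to HS and none rose. Their median log2 fold change was -2.70. Every PW library was below every HS library at 20 of them, against 21.1% of all tested genes. Of all tested genes, 7.57% were called lower. The list held 0.139% to 0.220% of counts in PW, 0.7% to 1.06% in HS and 0.479% to 0.657% in CK. HAI1 (AT5G59220), a protein phosphatase that restrains ABA signalling, had 3.5, 2.6 and 5.56 CPM in PW libraries, against 194, 291 and 190.5 CPM in HS libraries (log2FC -5.86, SE 0.35, edgeR adjusted p = 3.4e-05). CK libraries, with 22.9, 15.5 and 15.7 CPM, lay between the treatments. RD22 (AT5G25610), a dehydration-induced BURP protein, had 350.2, 575 and 408 CPM in PW libraries, against 4700, 4315 and 1391 CPM in HS libraries, and 752, 1144 and 934 CPM in CK (log2FC -2.96, SE 0.46, edgeR adjusted p = 0.00206). KIN1, a small hydrophilic stress protein, had 2.48, 0.963 and 1.13 CPM in PW libraries, against 53.9, 102 and 33 CPM in HS libraries (log2FC -5.33, SE 0.53, edgeR adjusted p = 0.000284). LTI65 had 0.427, 1.73 and 1.44 CPM in PW libraries, against 34.4, 53 and 41.6 CPM in HS libraries (log2FC -5.18, SE 0.38, edgeR adjusted p = 7.4e-05). HS3 was the lowest HS library at HAI1, RD22 and KIN1, yet remained above all PW libraries. LEA7, a late embryogenesis abundant protein whose G-box is shown above, was nearly absent from PW, with 1 count in all, and its mean level was 176-fold lower in PW, with a 95% counting interval of 31.6 to 6960. It reached the count filter only through the HS libraries, so its call carries no weight of its own. LEA7 rested on HS3, which had 14.2 CPM against 0.931 and 0.825 in HS1 and HS2, and its fitted log2 fold change was -7.04, -4.45 without HS3 and -9.27 without PW3, where it was no longer called. Another 3 genes of the pathway, named after their values were seen, fell in PW as well: NCED3, which makes the ABA precursor, had a log2 fold change of -1.90, the bZIP factor ABF3 -2.70, and the NAC factor RD26 -4.18. P5CS1, which makes proline, was not called, at 615 ± 313 CPM in PW and 750.5 ± 15 CPM in HS (SD, n = 3 each).

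Lipid transfer proteins, small secreted carriers of cuticle lipids, supplied the most abundant genes lower in PW. LTP3 (AT5G59320) had 10.6, 14 and 8.24 CPM in PW libraries, against 5600, 4937 and 1380 CPM in HS libraries, and 37.8, 58.9 and 70.1 CPM in CK (log2FC -8.50, SE 0.66, edgeR adjusted p = 0.000111). Its neighbour LTP4 (AT5G59310) had 8.46, 7.22 and 6.8 CPM in PW libraries, against 6698, 6535 and 2038 CPM in HS libraries (log2FC -9.40, SE 0.57, edgeR adjusted p = 3.5e-05). HS3 was the lowest HS library at both, and PW was below CK at LTP3 but close to CK, at 10.1, 10.2 and 8.57 CPM, for LTP4. The pair are near copies, so their separate counts are uncertain. LP1 had 1069, 792 and 973 CPM in PW libraries, against 4637, 3984 and 2408 CPM in HS libraries (log2FC -1.96, SE 0.28, edgeR adjusted p = 0.00147).

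The genes named next were chosen for calls in opposite directions from the CK libraries, which both treatments share. AHP4, a histidine phosphotransfer protein of the cytokinin relay, had 0.342, 0.385 and 0.721 CPM in PW libraries, against 51.5, 46.1 and 36 CPM in HS libraries, and 2.27, 0.804 and 1.22 CPM in CK. Its log2 fold change was -6.53 for PW over HS, -1.60 for PW over CK and 4.93 for HS over CK, with an edgeR adjusted p of 5.4e-05 in the first. TSPO, a membrane protein that binds haem and is induced by ABA, had 2 counts over the PW libraries together, both in PW1, and its mean level was 245-fold lower in PW, with a 95% counting interval of 67.8 to 2022. Its fitted log2 fold change was -7.76, and -10.77 without PW1. The chitinase-family gene AT2G43580, with 2 counts in PW3 and none in PW1 and PW2, was 279.6-fold lower in PW, with a 95% counting interval of 77.4 to 2309. Its fitted log2 fold change was -7.95, -7.36 without PW1 and -11.01 without PW3. In the other direction, MSRB6 (methionine sulfoxide reductase, which repairs oxidised methionine) had 88.4, 90.3 and 79.9 CPM in PW libraries, against 1.47, 2.47 and 2.9 CPM in HS libraries, and 19.8, 34.8 and 24.7 CPM in CK (log2FC 5.23, SE 0.30, edgeR adjusted p = 3.1e-05). The uncharacterised gene AT3G06070 had 46.2, 71.7 and 43.6 CPM in PW libraries, against 1.01, 0.33 and 2.9 CPM in HS libraries, and 15, 17.6 and 17 CPM in CK (log2FC 5.22, SE 0.53, edgeR adjusted p = 0.000328), and a log2 fold change of 6.29 without HS3. At these genes the CK libraries lay between the treatments.

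**Figure D3:**
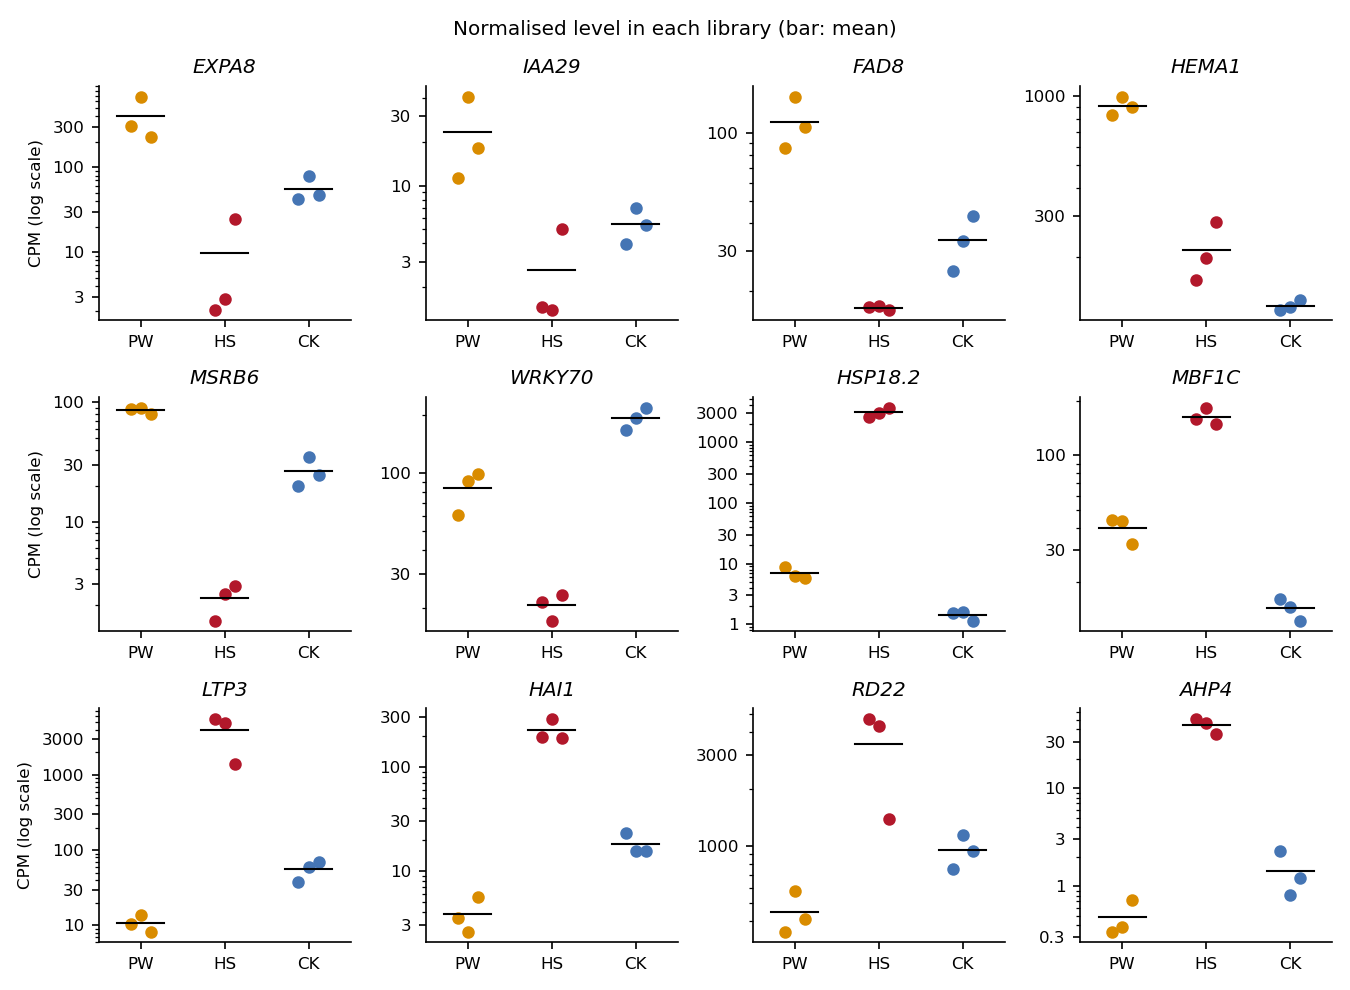
CPM of 12 genes in each library on log axes, with PW left, HS in the middle and CK right; points are libraries and bars group means of 3. EXPA8, IAA29, FAD8, HEMA1, MSRB6 and WRKY70 are higher in every PW library than in every HS library, and HSP18.2, MBF1C, LTP3, HAI1, RD22 and AHP4 are lower; HS3 stands apart from HS1 and HS2 at EXPA8, IAA29, LTP3 and RD22.

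Growth genes of thermomorphogenesis were higher in PW in part. Of 17 listed genes, 16 were tested, 8 rose in PW relative to HS and none fell, with a median log2 fold change of 1.35. Without PW1 and HS3 the count was 11, and without the TMM scaling it was 6. EXPA8 (AT2G40610), an expansin that loosens cell walls, had 310.4, 680.1 and 229.7 CPM in PW libraries, against 2.1, 2.8 and 24.4 CPM in HS libraries (log2FC 5.37, SE 0.97, edgeR adjusted p = 0.00413). Its log2 fold change was 4.78 without PW2 and 7.37 without HS3, which at 24.4 CPM was well above the other HS libraries. IAA29 (AT4G32280), an auxin-response repressor and a target of PIF4, had 11.3, 40.7 and 18 CPM in PW libraries, against 1.47, 1.4 and 4.99 CPM in HS libraries (log2FC 3.14, SE 0.61, edgeR adjusted p = 0.0059). It was 2.47 without PW2 and 4.01 without HS3. The auxin-induced growth gene SAUR20 had 19.6, 36.9 and 27 CPM in PW libraries, against 4.04, 4.21 and 7.52 CPM in HS libraries (log2FC 2.40, SE 0.36, edgeR adjusted p = 0.00175). CK libraries had 42.6, 79 and 47 CPM of EXPA8, 3.98, 7.06 and 5.37 CPM of IAA29 and 2.22, 4.59 and 3.13 CPM of SAUR20. They lay nearer HS than PW for IAA29 and SAUR20. At EXPA8 they lay between the treatments, with log2 fold changes of 2.85 for PW over CK and -2.52 for HS over CK, both called. SAUR genes stand in arrays of similar copies, and their separate counts are uncertain. PIF4 (AT2G43010) itself had 268, 438 and 286 CPM in PW libraries, against 157, 159 and 194 CPM in HS libraries (log2FC 0.96, SE 0.22, edgeR adjusted p = 0.0118). No PW value overlapped HS, but the difference was just under 2-fold and was not called, while without PW1 it was 1.09, without PW3 1.06 and without HS3 1.07, and was called.

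Photosynthesis genes were higher in PW in part and by smaller factors. Light-harvesting antenna proteins bind chlorophyll and pass light energy to the reaction centres, and 8 of 22 rose in PW relative to HS while none fell, with a median log2 fold change of 0.73. Without HS3 the count was 5 and without TMM scaling 4. CAB1 (AT1G29930), the most abundant, had 26097, 34068 and 33919 CPM in PW libraries, against 11055, 10970 and 11513 CPM in HS libraries (log2FC 1.49, SE 0.26, edgeR adjusted p = 0.00361). LHB1B1 had 2869, 4879 and 6112 CPM in PW libraries, against 542, 761 and 1375 CPM in HS libraries (log2FC 2.37, SE 0.41, edgeR adjusted p = 0.0034). LHCB2.3, whose G-box is shown above, had 1008, 1845 and 2067 CPM in PW libraries, against 194, 238 and 471 CPM in HS libraries, and 48, 80 and 70.1 CPM in CK (log2FC 2.45, SE 0.41, edgeR adjusted p = 0.00311). At LHCB2.3 both treatments were above CK, with PW higher, whereas at CAB1 HS did not differ from CK by a call. These genes have near copies. CAB3 lost its call without HS2 (log2 fold change 1.32), and LHCB5 lost its call without PW2 (1.05), PW3 (0.95), HS1 (1.15) or HS3 (0.95).

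Among nuclear genes of the photosystems, electron transport and ATP synthase, 6 of 32 rose in PW relative to HS and 1 fell, with a median log2 fold change of 0.71. FED A, the main leaf ferredoxin, had 1908, 2045 and 2051 CPM in PW libraries, against 673, 839 and 630.0 CPM in HS libraries (log2FC 1.49, SE 0.22, edgeR adjusted p = 0.0019). The member that fell was FD1, another ferredoxin, named after its values were seen, at 439 ± 96 CPM in PW and 915 ± 245 CPM in HS (SD, n = 3 each; log2FC -1.06). The most abundant member, PSBR of photosystem II, had 12279, 14448 and 13773 CPM in PW libraries, against 14808, 14782 and 6871 CPM in HS libraries, and 3385, 4699 and 3942 CPM in CK. PSBR was called higher than CK in both treatments and not between them, with HS3 below all other heated libraries. In the Calvin cycle list 5 of 18 rose and none fell, 4 of them small subunits of Rubisco, the enzyme that fixes CO2, and without TMM scaling 3 rose. RBCS1A (AT1G67090) had 24146, 17632 and 18717 CPM in PW libraries, against 7959, 7460 and 7363 CPM in HS libraries (log2FC 1.41, SE 0.26, edgeR adjusted p = 0.00449). GAPA-2 had 1160, 1122 and 1700 CPM in PW libraries, against 623, 661 and 438 CPM in HS libraries (log2FC 1.21, SE 0.26, edgeR adjusted p = 0.00978) and lost its call without PW3 (0.99). None of the 11 photorespiration genes was called, with a median log2 fold change of 0.33.

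Some chlorophyll synthesis genes were higher in PW, and some breakdown genes were lower. Of 12 synthesis genes 5 rose in PW relative to HS and none fell (median log2 fold change 1.03), and of 6 breakdown genes 2 fell and none rose (median -0.90). Without PW1 and HS3 the counts were 8 and 3, and without TMM scaling 3 synthesis genes rose. HEMA1 (AT1G58290), glutamyl-tRNA reductase and the first committed step, had 832, 997 and 899.8 CPM in PW libraries, against 158, 197 and 284 CPM in HS libraries, and 117, 120.2 and 129 CPM in CK (log2FC 2.10, SE 0.23, edgeR adjusted p = 0.000473). PORB, a light-dependent protochlorophyllide reductase, had 1159, 1017 and 1543 CPM in PW libraries, against 328, 343 and 602 CPM in HS libraries (log2FC 1.55, SE 0.29, edgeR adjusted p = 0.00536). CHLI1, a subunit of magnesium chelatase, had 758, 568 and 585 CPM in PW libraries, against 282, 266 and 202 CPM in HS libraries (log2FC 1.35, SE 0.20, edgeR adjusted p = 0.00189). All 3 were separate between treatments in every library. ACD1, pheophorbide a oxygenase of chlorophyll breakdown, had 56.6, 106 and 98.9 CPM in PW libraries, against 343, 298 and 148 CPM in HS libraries, and 99.5, 87.3 and 93.5 CPM in CK (log2FC -1.59, SE 0.33, edgeR adjusted p = 0.00827). PPH, pheophytinase, was called lower with a log2 fold change of -1.14, and lost its call without PW1 (-0.99), HS1 (-0.98) or HS2 (-1.02).

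**Figure D4:**
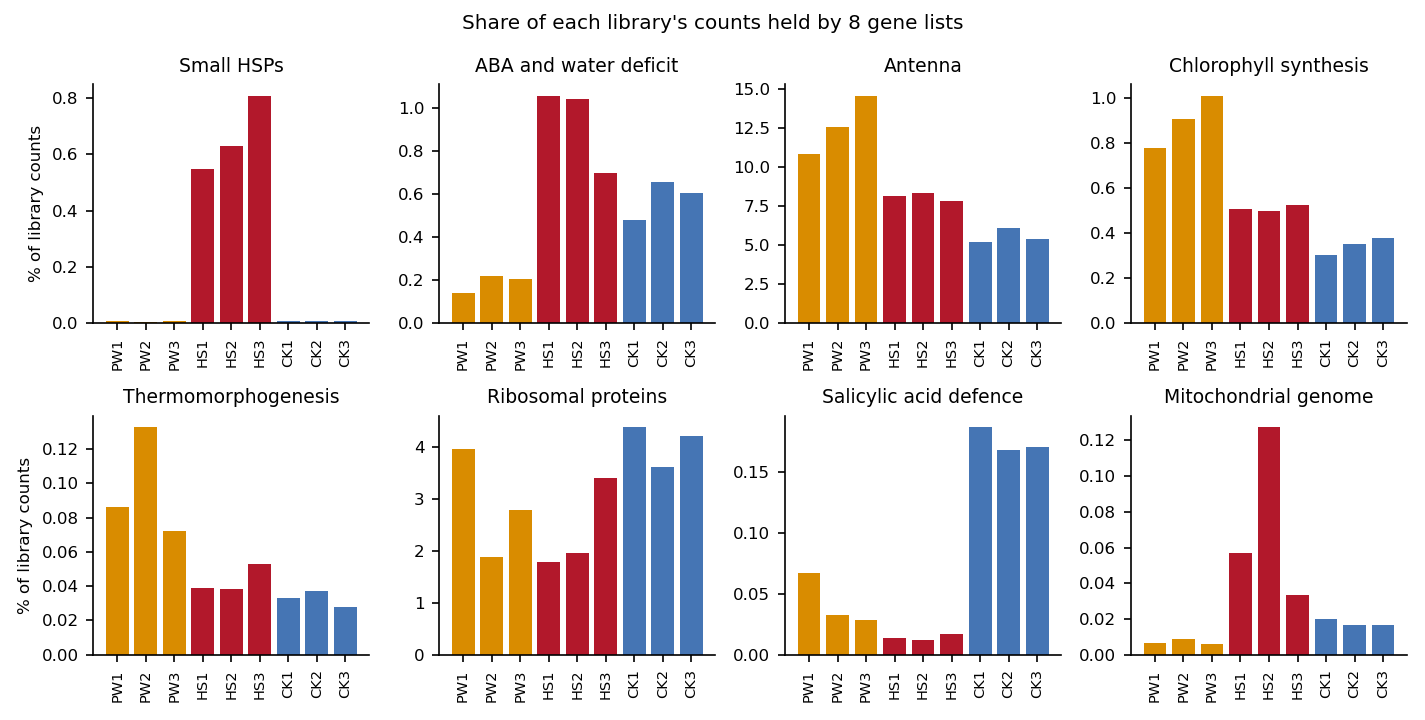
Share of each library's counts, in percent, held by all members of 8 gene lists, with PW, HS and CK libraries from left to right and every axis starting at 0. Small heat shock proteins reach 0.547% to 0.808% in HS libraries only, ABA genes are lowest in PW, the antenna is highest in PW at 10.8% to 14.5%, and the ribosomal protein share differs among libraries of 1 treatment.

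Fatty acid desaturases, which set the unsaturation of membrane lipids, were higher in PW in part. Of 10 genes, 3 rose in PW relative to HS and none fell, with a median log2 fold change of 1.11, and 7 rose without PW1 and HS3. FAD8 (AT5G05580), a chloroplast omega-3 desaturase whose protein is known to be cold-favoured, had 85.7, 145 and 106 CPM in PW libraries, against 16.8, 17.2 and 16.5 CPM in HS libraries, and 24.6, 33.1 and 42.9 CPM in CK (log2FC 2.74, SE 0.25, edgeR adjusted p = 0.000216). At FAD8 the HS libraries lay below CK and the PW libraries above it. FAD5, a palmitate desaturase of chloroplast lipids, had 176, 264 and 298 CPM in PW libraries, against 87, 87 and 81.2 CPM in HS libraries (log2FC 1.53, SE 0.20, edgeR adjusted p = 0.00103). FAD2, the main oleate desaturase outside the chloroplast, had 1283, 1827 and 1262 CPM in PW libraries, against 537, 645 and 1253 CPM in HS libraries and was not called, and HS3 lay close to the lower PW libraries. Without HS3 its log2 fold change was 1.30 and was called.

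Carbon-starvation genes, which respond to low sugar through the kinase SnRK1 and bZIP factors, rose in PW at 5 of 11 tested of 12 listed, and none fell, with a median log2 fold change of 0.91, and 8 rose without PW1 and HS3. BZO2H3 (bZIP63), a factor phosphorylated by SnRK1, had 42.6, 60.7 and 46.6 CPM in PW libraries, against 12, 10.1 and 9.76 CPM in HS libraries, and 8.19, 6.83 and 6.4 CPM in CK (log2FC 2.24, SE 0.18, edgeR adjusted p = 0.000122). TPS11, of the trehalose phosphate synthase family, had 48.1, 127 and 92.5 CPM in PW libraries, against 16.6, 18 and 27.3 CPM in HS libraries (log2FC 2.11, SE 0.36, edgeR adjusted p = 0.00319). SEN1, a dark-induced gene, had 14.5, 63.5 and 33.3 CPM in PW libraries, against 7.53, 5.53 and 9.31 CPM in HS libraries (log2FC 2.31, SE 0.53, edgeR adjusted p = 0.0128), and 1.67 without PW2. The most abundant member, DYL1, had 54.4, 68 and 54.8 CPM in PW libraries, against 29.7, 37.2 and 184 CPM in HS libraries and was not called, and HS3 was above all PW libraries. Of 12 starch genes 1 rose and 1 fell. The share called, 16.7%, was near the 14.5% of all tested genes called in either direction. The riser APL1, a subunit of the enzyme that commits carbon to starch, had 70.9, 96.8 and 91.2 CPM in PW libraries, against 45.2, 37 and 28.7 CPM in HS libraries (log2FC 1.22, SE 0.21, edgeR adjusted p = 0.00357). BAM1, a beta-amylase of starch breakdown, had 66.3, 122 and 107 CPM in PW libraries, against 335, 269.8 and 174 CPM in HS libraries (log2FC -1.40, SE 0.28, edgeR adjusted p = 0.00686).

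Defence genes responsive to salicylic acid were higher in PW than in HS in part. Of 20 listed genes 18 were tested, 6 rose in PW relative to HS and none fell, with a median log2 fold change of 0.85. The counts were 7 and 1 without PW1 and HS3, with a median of 0.56. Against the shared CK libraries the medians were -2.02 in PW and -2.90 in HS. WRKY70, a factor that promotes salicylic acid defence, had 60.7, 91.1 and 98.6 CPM in PW libraries, against 21.7, 17.2 and 23.5 CPM in HS libraries, and 167, 193 and 218 CPM in CK (log2FC 2.005, SE 0.22, edgeR adjusted p = 0.000473). WRKY54, its close relative, had 26.7, 25.9 and 16.2 CPM in PW libraries, against 2.1, 0.412 and 3.43 CPM in HS libraries, and 41.8, 58.2 and 55.2 CPM in CK (log2FC 3.51, SE 0.50, edgeR adjusted p = 0.00145), and 4.16 without HS3. PBS3, which conjugates isochorismate on the route to salicylic acid, had 5.04, 6.45 and 7.73 CPM in PW libraries, against 0.621, 0.66 and 1.04 CPM in HS libraries (log2FC 3.03, SE 0.39, edgeR adjusted p = 0.000903). The defence marker PR1, named after its values were seen, averaged 0.513 ± 0.888 CPM in PW and 1.78 ± 2.4 CPM in HS (SD, n = 3 each) and was not called. Over the WRKY family, 43 of 67 genes were tested, 5 rose and 1 fell, with a median of -0.05, against 14.5% of all tested genes called in either direction. In the fit without PW1 and HS3 9 rose and 5 fell. Of 19 jasmonate and ethylene defence genes 2 fell and none rose, and 5 fell without PW1 and HS3. The share that fell, 10.5%, was near the 7.57% of all tested genes called lower. VSP2, a vegetative storage protein induced by jasmonate, had 310.4, 36.6 and 197 CPM in PW libraries, against 1171, 735 and 1122 CPM in HS libraries (log2FC -2.47, SE 0.62, edgeR adjusted p = 0.0184), with PW2 far below the other PW libraries, and its log2 fold change was -3.11 without PW1 and -2.54 without PW3, where it was not called.

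Secondary metabolism was mixed. Of 10 flavonoid genes 9 were tested, 3 fell in PW relative to HS and 1 rose, and the median of -1.68 was 0.00 without HS3. PAP1 (MYB75), which switches on anthocyanin synthesis, had 7.26, 2.12 and 2.37 CPM in PW libraries, against 75, 80.4 and 27.5 CPM in HS libraries (log2FC -3.94, SE 0.55, edgeR adjusted p = 0.00133), and -4.76 without PW1. TT4, chalcone synthase, the entry to the pathway, had 51.2, 17.4 and 43.9 CPM in PW libraries, against 109, 102 and 127 CPM in HS libraries (log2FC -1.59, SE 0.38, edgeR adjusted p = 0.0151). FLS1, which makes flavonols, was called higher, and lost its call without PW1 (1.47), PW3 (1.26), HS1 (1.45) or HS2 (1.47). Of 16 glucosinolate genes 3 rose and 1 fell. CYP83B1, which serves the indole branch, had 262, 339.8 and 207 CPM in PW libraries, against 93, 85.7 and 73.1 CPM in HS libraries (log2FC 1.68, SE 0.20, edgeR adjusted p = 0.000719), and CYP79B3, also of that branch, had 64.8, 101 and 70.6 CPM in PW libraries, against 30.5, 28.5 and 21.6 CPM in HS libraries (log2FC 1.55, SE 0.20, edgeR adjusted p = 0.00089). The other riser, CYP79B2, went under 2-fold without PW2 (0.71) or HS3 (0.85). IMS2, called lower at -1.95, lost its call without PW2 (-1.67).

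Antioxidant enzymes gave 2 genes that rose, 1 that fell and 13 not called, and without PW1 and HS3 3 fell. In the main fit the share called, 18.75%, was near the 14.5% of all tested genes called in either direction. The gene that fell, APX2, reached the count filter only through the HS libraries, so that call carries no weight of its own. APX2, a cytosolic ascorbate peroxidase that heat shock factors induce, had 2 counts over the PW libraries together, against 38.1, 34.6 and 52.2 CPM in HS libraries, and its mean level was 666-fold lower in PW, with a 95% counting interval of 184 to 5502. CCS, the copper chaperone of superoxide dismutase, had 130.2, 151 and 167 CPM in PW libraries, against 40.7, 52.1 and 78.2 CPM in HS libraries (log2FC 1.39, SE 0.23, edgeR adjusted p = 0.00289). CSD2, its chloroplast client, was called at 1.30 but kept that call in only 1 of 9 fits that left out a library, that without HS3 (1.98).

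Clock genes had larger medians against CK than between PW and HS. None of 8 morning genes was called between PW and HS (median log2 fold change 0.28), while all 8 were called higher than CK in PW and in HS, against 8.82% and 11.3% of all tested genes, with medians of 3.64 and 3.42. AT3G54500, the most abundant, had 290.2, 585 and 359 CPM in PW libraries, against 420.4, 422 and 319.9 CPM in HS libraries, and 15.5, 19.8 and 17.6 CPM in CK. Of 10 evening genes 1 rose and 2 fell between PW and HS, with medians of -1.96 in PW and -0.86 in HS against CK. BOA, a relative of LUX whose evening element is shown above, had 1.96, 1.35 and 1.44 CPM in PW libraries, against 3.57, 3.55 and 8.94 CPM in HS libraries, and 16.9, 15.3 and 13.1 CPM in CK (log2FC -1.75, SE 0.39, edgeR adjusted p = 0.0115), and -1.15 without HS3. PRR3, which stabilises the repressor TOC1, had 23.6, 15.3 and 21.5 CPM in PW libraries, against 64.7, 64.8 and 34.3 CPM in HS libraries (log2FC -1.44, SE 0.26, edgeR adjusted p = 0.00438). ELF4, of the evening complex, was called higher at 1.27 and lost its call without HS1 (1.12). The hour of day at sampling and the treatment cannot be told apart at these genes. Of 10 flowering regulators 8 were tested and none was called, with a median of 0.20.

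**Figure D5:**
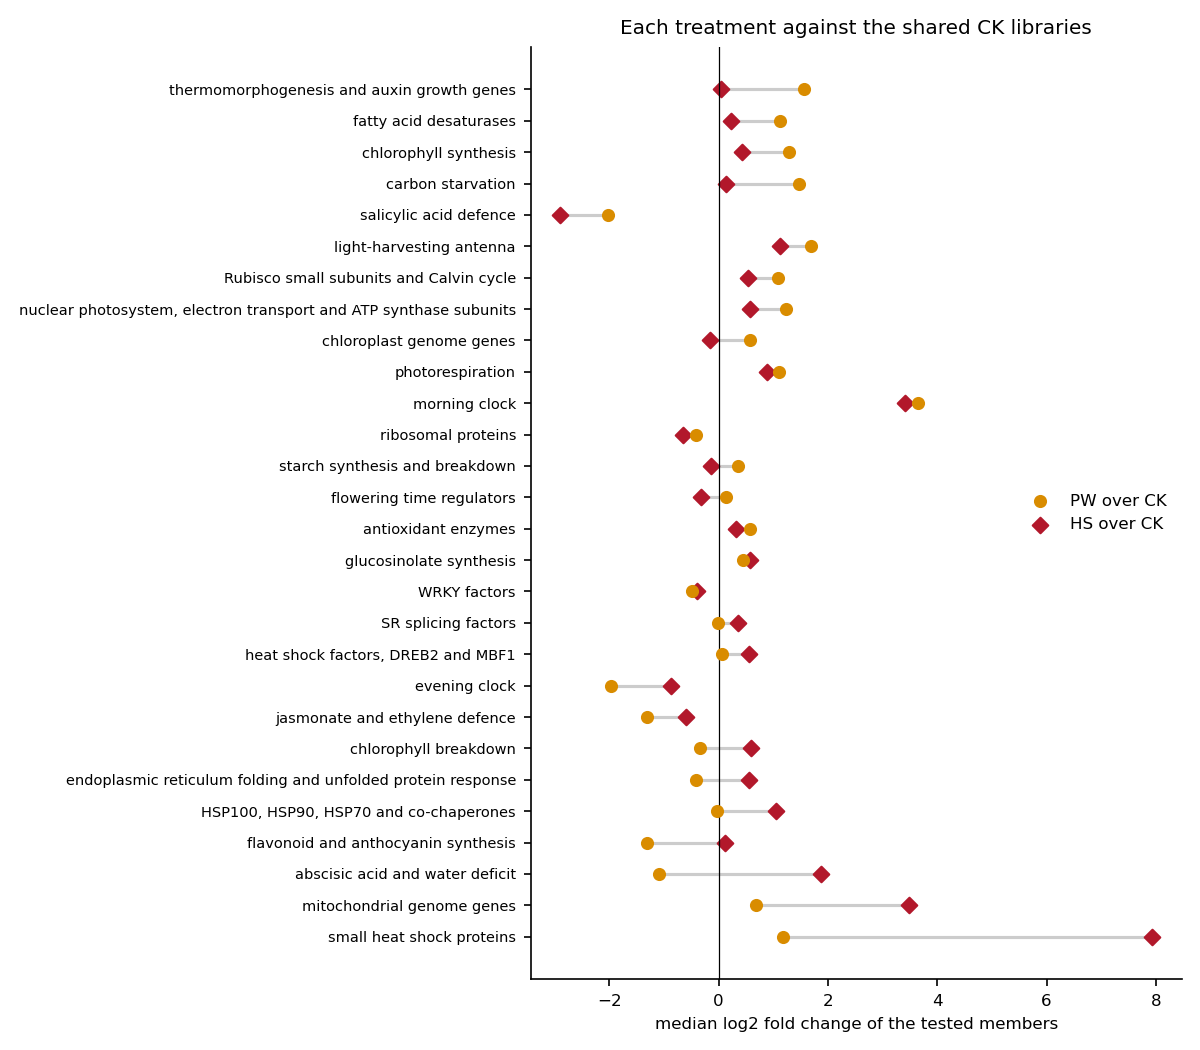
Median log2 fold change of the tested members of each list over CK, for PW (orange circles) and HS (red diamonds), with lists ordered by their PW over HS median; both use the same 3 CK libraries, so the points of a row are not independent. The small heat shock list lies at 1.17 in PW and 7.94 in HS, the ABA list at -1.08 and 1.88, the morning clock at 3.64 and 3.42 and thermomorphogenesis at 1.56 and 0.04. Some small heat shock genes passed the count filter only through the HS libraries.

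Set against CK, the same lists place the 2 treatments on either side or on 1 side of the control. Over all tested genes 8.82% were called higher and 7.6% lower in PW than in CK, and 11.3% higher and 10.5% lower in HS than in CK. ABA genes were called lower than CK at 9 of 23 and higher at 2 in PW, and higher at 16 and lower at 1 in HS. Thermomorphogenesis genes were called higher than CK at 10 of 16 in PW, and higher at 2 and lower at 2 in HS. Small heat shock genes were called higher than CK at 7 of 17 in PW and at all 17 in HS. Of the 17, 8 reached the count filter only through the HS libraries, so their calls in HS carry no weight of their own. Antenna genes were called higher than CK at 20 of 22 in PW and at 12 in HS. The hour at which PW and CK leaves were taken was not given, so hour and treatment cannot be told apart in these comparisons.

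Few ribosomal protein genes were called, 6.4% of those tested against 14.5% of all tested genes. Of 327 genes chosen by product name, 297 were tested, 15 rose in PW relative to HS and 4 fell, with a median log2 fold change of 0.27, and without PW1 and HS3 14 rose and 6 fell. In the main fit, 2 of the 4 that fell reached the count filter only through the HS libraries. The rule also took in organellar products, and AT5G24490, annotated as a 30S protein, was the largest rise among those named, with 559, 856 and 709.6 CPM in PW libraries, against 207, 204 and 181 CPM in HS libraries (log2FC 1.85, SE 0.20, edgeR adjusted p = 0.000476). The summed share was 3.97%, 1.88% and 2.8% of counts in PW1, PW2 and PW3, against 1.8%, 1.96% and 3.41% in HS1, HS2 and HS3. PW1 and HS3, the libraries with the root-associated transcripts, had the highest share of their treatment, and without HS3 46 genes rose, against 6 without TMM scaling.

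Chloroplast-genome transcripts were higher in PW in part, and the summed share of mitochondrial transcripts was lower. RNA of the chloroplast and mitochondrial genomes largely lacks long poly(A) tails, so its recovery depends on library preparation, and a part for that was not tested. Of 133 chloroplast genes, 82 were tested, 15 rose in PW relative to HS and 1 fell, with a median log2 fold change of 0.60, and 21 rose without PW1 and HS3. ATCG00190 had 25.1, 20.5 and 18.1 CPM in PW libraries, against 3.26, 3.96 and 4.32 CPM in HS libraries (log2FC 2.46, SE 0.18, edgeR adjusted p = 7.1e-05). ATCG00790 had 986, 609 and 539 CPM in PW libraries, against 144, 149 and 274 CPM in HS libraries (log2FC 1.91, SE 0.32, edgeR adjusted p = 0.0029). All 146 mitochondrial genes together held 0.00617% to 0.00861% of counts in PW, 0.0336% to 0.127% in HS and 0.0164% to 0.0200% in CK. Of these 38 were tested, 15 of them only through the HS libraries, so their count of 34 lower in PW carries no weight of its own. ATMG01200 had 0.598, 0.771 and 0.515 CPM in PW libraries, against 17.7, 19.6 and 7.89 CPM in HS libraries (log2FC -4.56, SE 0.42, edgeR adjusted p = 0.000218). ATMG00020 had 3.42, 3.85 and 3.91 CPM in PW libraries, against 13, 378 and 7.82 CPM in HS libraries, and 68.9, 56.7 and 59.9 CPM in CK. HS2 alone set its log2 fold change of -5.16, which was -1.48 without HS2. ATMG00020 lost its call without any 1 of the PW libraries (-5.09, -5.18 and -5.19 without PW1, PW2 and PW3).

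The remaining genes with the largest rises in PW were of mixed or unknown function. AT1G72920, a TIR-domain protein of the kind found in immune receptors, had 22.2, 49.7 and 26.2 CPM in PW libraries, against 1.79, 1.32 and 0.521 CPM in HS libraries (log2FC 4.75, SE 0.48, edgeR adjusted p = 0.000313). ERF6, an ethylene response factor, had 12.6, 22.2 and 14.8 CPM in PW libraries, against 0.466, 1.24 and 0.298 CPM in HS libraries (log2FC 4.63, SE 0.56, edgeR adjusted p = 0.000711), and 5.41 without HS2. AT1G76240, of unknown function, had 31.2, 56.5 and 22.4 CPM in PW libraries, against 1.71, 0.907 and 0.521 CPM in HS libraries, and 0.787, 0.631 and 1.73 CPM in CK (log2FC 5.12, SE 0.54, edgeR adjusted p = 0.000394). At ERF6 the HS libraries were below CK, at 13.8, 6.66 and 5.31 CPM, while AT1G76240 was above CK in PW alone.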

How the data were processed

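Total RNA of leaves had been sequenced by the authors on an Illumina platform (RNA selection and strand not given in the sources used here), and the submitters' processing notes name CASAVA 1.8, TopHat2, HTSeq 0.6.1 and TAIR10. The deposited table holds unnormalised read counts per gene made by the authors, 1 column for each of 9 libraries, and all its columns were used (0 were left out). Strand and multi-mapping settings were not given in the sources used here, so near copies, overlapping and antisense genes are uncertain. The deposited counts were fitted with edgeR 4.0.16 in R 4.3.3 (TMM scaling, quasi-likelihood F test, 3 groups over all 9 libraries, with limma 3.58.1), on genes that reached 10 counts in 3 or more libraries, and p-values were adjusted over all 18952 tested genes. Levels are CPM after TMM scaling, and changes (log2FC) are PW over HS. SE is the absolute log2FC divided by the square root of the F statistic, so it was derived from the test and not estimated separately. The totals of 11660970 to 17768334 counts per library limit the precision of genes at a few CPM, where counting error is large. Where a group's summed counts were 1 to 3, a ratio of levels with an exact counting interval is given, and it covers counting error only. The chi-square of counts within every pair of replicates exceeded sampling noise, so no library was counted as a repeat.

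The comparison and gene lists were chosen with earlier results of these data known. Genes were named by rule: the 12 largest rises and falls with at least 100 counts in each library of the higher group, the 5 largest differences in CPM each way, up to 4 called members and the most abundant member of each list, and up to 5 genes opposite to CK each way. Some were left out of the text. Symbols and promoters came from RefSeq TAIR10.1, which matched 32835 of 33602 identifiers. Motifs were searched on both strands in windows of 300 bases. Alternatives were no filter or a stricter one, no TMM, upper-quartile scaling, DESeq2 1.42.0, no organelle genes, 2 groups alone, the replicate block, glmTreat, adjusted p alone, each library left out, and, chosen after seeing the data, PW1 and HS3 left out together. The fits were tested on simulated data, in which the changed genes were drawn from genes with counts in every library. That test did not cover genes nearly absent from a treatment, or changes as large as the largest here.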

Additional observations from a re-analysis of the deposited data

How the results depend on the processing

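The 2746 calls, 1312 higher and 1434 lower in PW, were recomputed under each alternative, and no shared call changed direction. DESeq2 called 3046 genes, 2674 of them shared with edgeR. Without TMM scaling 808 genes were higher and 2153 lower, a share of 27.3% higher against 47.8%, and the median log2 fold change of all tested genes was -0.26 against -0.02. A test against a 2-fold change (glmTreat) called 749 genes, 320 higher and 429 lower, by construction fewer, and adjusted p alone called 5052, 2359 higher and 2693 lower. Leaving out 1 library gave 2259 (without HS2) to 3961 calls (without HS3), with 1049 to 2335 higher and 1210 to 1626 lower. Without PW1 and HS3 there were 3835 calls, 2128 of them higher. Same-numbered PW and HS libraries deviated together at r of -0.497, 0.45 and 0.0847 for numbers 1, 2 and 3. With 3 libraries a group, these values cannot show whether same-numbered libraries were paired. The replicate block called 2528 genes, 1213 higher and 1315 lower, 2444 of them shared. Of 133 named genes 115 were called, and 94 of these kept their call in every fit that left out 1 library.

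Some genes that were not called changed sign. Over the fits that each left out 1 library, log2 fold changes ran from -0.13 to 0.32 for PSBR, -0.11 to 0.47 for SHM1, -0.36 to 0.044 for NYC1, -0.26 to 0.29 for AT3G54500, -0.077 to 0.29 for SVP, -0.18 to 0.15 for LOX2, -0.91 to 0.82 for DYL1, -0.31 to 0.31 for SEX1 and -0.032 to 0.28 for MAM1. Without TMM PSBR was at -0.051, AT3G54500 at -0.16, SVP at -0.090 and MAM1 at -0.078. Without PW1 and HS3 PSBR was at -0.068, LOX2 at 0.043, DYL1 at 0.88, SEX1 at 0.053 and MAM1 at -0.11. The causes were not tested. Median log2 fold changes of the antioxidant, flowering and glucosinolate lists were -0.11, -0.06 and -0.12 without TMM, the WRKY median was 0.36 without HS3 and the ribosomal median was -0.03 without PW1. With at least 10 counts in every library the median of small heat shock genes was -2.64, since genes near 0 in PW were removed.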

Other observations

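Further gene families were examined after the values were seen, so their counts are a description. Type-A response regulators, which cytokinin induces and which damp its signal, were higher in PW at 7 of 8 tested genes of 10, and none was lower, with a median log2 fold change of 2.58. The median was 0.66 in PW and -2.04 in HS over the shared CK libraries. ARR7 had 27.7, 16.8 and 16.9 CPM in PW libraries, against 1.71, 2.64 and 2.01 CPM in HS libraries, and 11.2, 13.4 and 12.4 CPM in CK (log2FC 3.27, SE 0.26, edgeR adjusted p = 0.000122). ARR4 had 146, 155 and 116 CPM in PW libraries, against 31.7, 34.4 and 18.9 CPM in HS libraries, and 78.9, 100.1 and 99.3 CPM in CK (log2FC 2.29, SE 0.24, edgeR adjusted p = 0.000393). Of the type-B regulators, the transcription factors that switch these genes on, 6 of 7 were tested, none was called, and the median was 0.00. Among 5 tested cytokinin oxidases, which degrade the hormone, 1 was higher and 1 lower.

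Some genes of cell growth families were also called higher in PW. Of 15 tubulin genes, the subunits of microtubules, 7 were higher and none lower, with a median of 1.34, and 12 were called lower than CK in HS. Without TMM scaling 4 were higher. TUB5 had 417, 369.8 and 312 CPM in PW libraries, against 68.8, 71.1 and 101 CPM in HS libraries (log2FC 2.19, SE 0.21, edgeR adjusted p = 0.000249). Of 29 XTH genes, whose enzymes cut and rejoin wall xyloglucan, 18 were tested, 6 were higher and none lower, with a median of 1.59. TCH4 had 45.8, 49.3 and 48.2 CPM in PW libraries, against 1.55, 3.13 and 4.84 CPM in HS libraries (log2FC 3.90, SE 0.51, edgeR adjusted p = 0.000996). XTH6 had 121, 179 and 94.3 CPM in PW libraries, against 5.9, 4.54 and 13.4 CPM in HS libraries (log2FC 4.04, SE 0.42, edgeR adjusted p = 0.000342). Over 47 tested of 78 SAUR genes 21 were higher and 4 lower, over 19 tested of 36 expansins 4 were higher and 2 lower, and over 47 tested of 133 lipid transfer genes 2 were higher and 12 lower. Without PW1 and HS3 the counts higher and lower were 24 and 6 for SAUR genes, 12 and 0 for tubulins, 9 and 1 for XTH genes, 8 and 2 for expansins and 6 and 12 for lipid transfer genes.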
